A study of Mus musculus with 12 samples.

Results

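Gene expression was compared between mock-treated mouse embryonic fibroblasts that were wild type (WT) or knockout (KO) for lincRNA-p21. The comparison used all 10648 genes of the mock expression table and 6 of the 12 libraries of the series, 3 from each genotype. The WT cells are labelled lincRNA-p21+/+ and the KO cells lack the gene. Which stretch of the locus was removed is not given in the sources used here. Both genotypes were primary cultures on a hybrid 129/B6 background and neither received doxorubicin, the DNA-damaging drug of the other libraries. The series describes the replicates as biological, but its labels do not say what a replicate number stands for or whether WT and KO cultures of the same number came from the same litter. The question put by the series is what lincRNA-p21 does to its neighbour Cdkn1a, to genes under Polycomb control and to entry into S phase.

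LincRNA-p21 is a long noncoding RNA whose gene lies beside Cdkn1a on chromosome 17 and is induced by p53. Cdkn1a encodes p21, which binds cyclin-dependent kinases and holds cells in G1 by keeping RB family proteins active. When p21 is low, E2F and the DREAM-repressed genes of the cell cycle can be transcribed more freely. Polycomb complexes keep developmental regulators silent through modification of histones, and in fibroblasts the Hox and limb genes they cover keep a record of the position in the body from which the cells came.

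Values are in CPM (the reads of a gene per 1e6 reads of its library) and are given in the order of replicates 1, 2 and 3. Differences are KO minus WT of log2(CPM + 1), a scale that understates the change of low genes. A pair is the KO and the WT library with the same number. Library totals, inferred from the steps of the CPM values, ran from 14327048 to 19956779 reads, and the 10 highest genes took 8.83 to 11.1% of a library. The table has a floor in WT alone: all its genes exceeded 2 CPM in each WT library, and in KO 164 of them fell to 2 CPM or less in some library. A gene switched on in KO from a low WT level is thus not covered. LincRNA-p21 was not analysed here, and no check of the genotype on the deleted RNA was made.

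The cultures carried a fibroblast profile. Of 19 fibroblast markers 17 were measured, and their summed level was 69081, 59783 and 66072 CPM in WT and 57967, 51479 and 64662 CPM in KO. Of the endothelial markers 5 of 19 were measured, of the skeletal muscle markers 3 of 28 and of the blood and macrophage markers 1 of 23, the last being Cd68. Myod1, Myog, Pax7, Pecam1, Cdh5 and Ptprc were not among the listed genes. Because the floor of the table is in WT alone, an unlisted marker says nothing about its level in KO. Epithelial markers were measured for 7 of 24 genes, with neither Epcam nor Cdh1 listed, and the neural list for 5 of 21. The cartilage and bone list, 5 of 23 measured, was summed at 1501, 951 and 1486 CPM in WT against 3690, 2049 and 1846 CPM in KO, nearly all of it Spp1, the osteopontin gene. The part of these differences in the results below was not tested.

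The libraries differed more between pairs than between genotypes. For the median gene 70.3% of the sum of squares over the 6 libraries lay between pairs, 12.3% between genotypes and 9.28% in the rest. Genotype differences were alike in pairs 1 and 2 and much less so in pair 3. Across the 10648 genes, the differences of pairs 1 and 2 correlated at r = 0.77, those of pairs 1 and 3 at 0.19 and those of pairs 2 and 3 at 0.18. These correlations describe genes measured in the same libraries, and genes are not independent replicates. At least 2-fold differences were found for 170 genes in pair 1, 135 in pair 2 and 69 in pair 3.

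**Figure D1:**
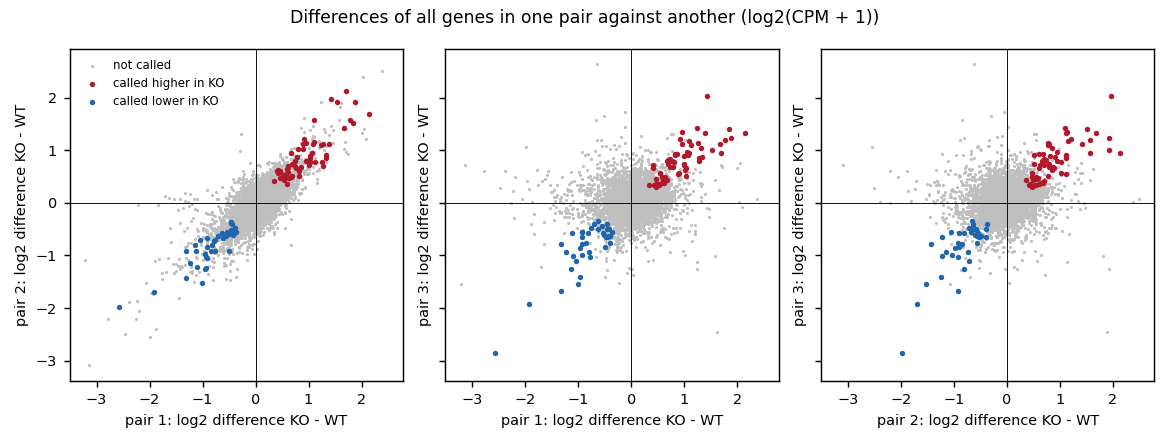
Each point is 1 of the 10648 genes, placed by its log2 difference, KO minus WT of log2(CPM + 1), in one pair on the horizontal axis and another pair on the vertical axis. Genes called with the replicate block are coloured, red higher and blue lower in KO. The cloud is drawn out along the diagonal for pairs 1 and 2 (r = 0.77) and is round for the panels with pair 3 (r = 0.19 and 0.18).

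With the pair as a block, limma called 98 genes at a Benjamini-Hochberg adjusted p under 0.05, which is 0.920% of those tested. Of these, 60 were higher in KO (0.563%) and 38 lower (0.357%), and the smallest adjusted p was 0.0223. Without the block limma called 0 genes. In that fit 440 genes had p under 0.05 before adjustment, and the lowest adjusted p was 0.199. The count was 4 without pair 1, 0 without pair 2 and 2438 without pair 3, so the calls below rest on the block and on pair 2, and all but 4 of them (Acta1, Mmp9, Nt5e and Pkp1) also on pair 1. The verbs rose and fell are used below of genes called with the block. The split between higher and lower depended on the scaling: it was 60 to 38 as deposited, 51 to 53 after quantile normalization and 43 to 65 after centring each library on its median. After either rescaling the 98 genes kept their direction. Centring shifts all genes alike (Cdkn1a from -0.85 to -0.91), and the smallest called difference was 0.36, so it could not reverse a called gene. Of the 98, 85 were still called after quantile normalization, 81 after median centring, 76 of the 94 tested at a mean of at least 5 CPM, and 36 by limma without the trend of variance on level.

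The called differences were mostly moderate. Their median size was 0.82 on the log2 scale, the smallest was 0.36, and 20 genes rose and 9 fell by at least 2-fold. The 9 include AC145168.1, RP23-73N16.5, Mmp9, Nell2 and Ifi27l2b. Each of these had a KO library at 2 CPM or less and is listed through its WT level alone. With every library above 2 CPM, 60 genes were called higher and 33 lower. In 50 of the 98 called genes the 3 KO libraries did not overlap the 3 WT libraries, 34 of them above and 16 below. Over all genes such separation was found for 9.98%, with 8.25% above and 1.74% below. Means lay above WT for 66.6% of all genes, with a median difference of 0.06. Over the called genes the median shares of the spread, each taken separately, were 39.8% between pairs, 58.9% between genotypes and 1.40% in the rest.

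**Figure D2:**
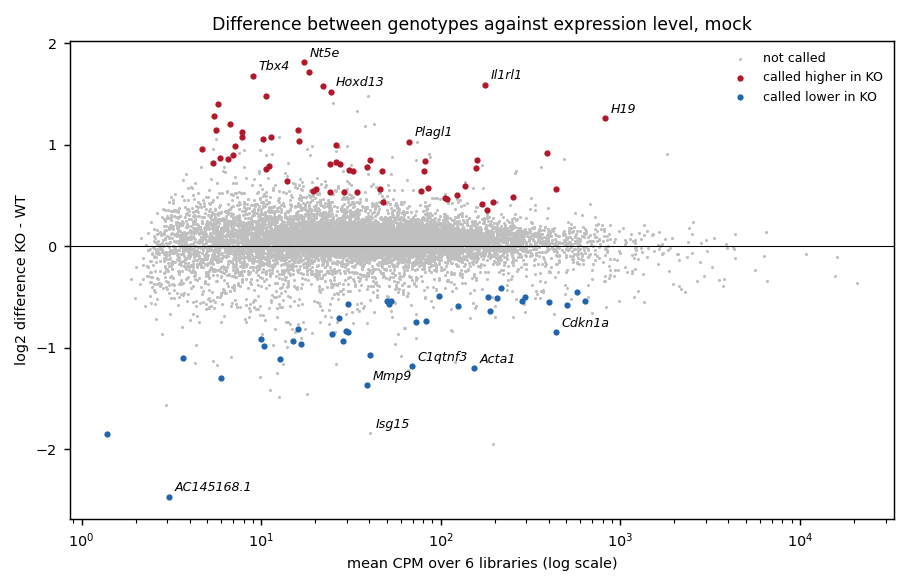
Each point is a gene, with its mean CPM over the 6 libraries on a log axis and its log2 difference, KO minus WT, on the vertical axis. Red points are the 60 genes called higher and blue points the 38 called lower with the replicate block. Called genes are spread from low to high levels, and Isg15 has a large difference without being called.

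Cdkn1a fell in KO to a similar extent in all pairs. It was at 578, 506 and 613 CPM in WT and at 304, 283 and 357 CPM in KO. No KO library reached the lowest WT library, and the 3 pairs differed by nearly the same amount (-0.92, -0.84 and -0.78). Cdkn1a fell by 0.85 on the log2 scale (SE 0.05, n = 3 pairs), with an adjusted p of 0.0223 by limma with the block and 0.395 without it. For Cdkn1a 91.6% of the spread over the 6 libraries lay between genotypes and 7.98% between pairs. RNA from bulk cultures cannot tell fewer cells expressing a gene from less RNA per cell, here or in what follows.

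No other measured neighbour of Cdkn1a on chromosome 17 passed. Of 23 measured genes from a list of 37 around it, 12 lay above WT and 11 below, with a median of 0.01 that includes Cdkn1a itself. Sfrs3, a splicing factor gene now named Srsf3 and one of the nearest, was at 135, 151 and 141 CPM in WT and at 165, 193 and 154 CPM in KO. Ppil1, a peptidylprolyl isomerase of the spliceosome, was at 27.4, 30.1 and 28.0 CPM against 37.4, 38.3 and 30.6 CPM. Both genes had KO libraries above all WT libraries, the opposite side from Cdkn1a, and neither passed (limma adjusted p = 0.105 and 0.127 with the block). Mapk13, the p38 delta kinase gene, had a difference of 0.68 and an adjusted p of 0.0825 by limma with the block. Over the whole chromosome 2 of 510 genes were called (0.392%, beside 0.920% of all genes). They were Cdkn1a and Gpr116, an adhesion receptor gene that fell by 0.91 on the log2 scale.

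Other genes of the p53 pathway showed little difference in mock cells. Trp53 was at 127, 134 and 112 CPM in WT and 144, 164 and 120 CPM in KO, with overlapping groups (log2 0.19, limma adjusted p = 0.136 with the block). Mdm2, the ubiquitin ligase that limits p53, was at 246, 275 and 235 CPM against 253, 284 and 217 CPM, a difference of -0.01. Of 49 measured p53 targets, 0 rose and 1 fell, which was Cdkn1a, beside 0.563% and 0.357% of all genes. The median of these targets was 0.11, beside 0.06 for all genes. Ckap2, a spindle protein gene on that list, came nearest to a call upward at 0.55 (SE 0.09, limma adjusted p = 0.0641 with the block). Bax, a pore-forming death effector, was at 177, 163 and 175 CPM in WT and 203, 183 and 183 CPM in KO. Ccng1, cyclin G1, was at 781, 816 and 967 CPM against 836, 917 and 928 CPM. Neither Bax nor Ccng1 passed (limma adjusted p = 0.190 and 0.546 with the block).

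Among 9 measured genes of CDK inhibitors and the RB family, Cdkn1a fell and Cdkn2c rose, where 0.357% of all genes fell and 0.563% rose. Cdkn2c encodes p18, an inhibitor of CDK4 and CDK6, and was at 9.49, 11.8 and 10.9 CPM in WT and 16.0, 17.2 and 18.7 CPM in KO. Its groups did not overlap, and it differed by 0.64 (SE 0.09, limma adjusted p = 0.0489 with the block). The Cdkn2c call was lost after quantile normalization, after median centring, at a mean of at least 5 CPM and without the trend. Rbl1, which encodes the RB relative p107, lay above WT in all pairs (18.6, 20.3 and 15.1 against 24.8, 28.6 and 20.8 CPM) without passing (limma adjusted p = 0.0613 with the block). Cdkn2a, the Ink4a and Arf locus, differed between pairs and hardly between genotypes: it was at 101, 97.1 and 230 CPM in WT and 112, 83.9 and 227 CPM in KO.

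Genes of G2 and mitosis lay above WT together. All 81 measured members of that list had a mean above WT, 78 of them in all 3 pairs, against 66.6% and 35.3% of all genes. The median difference was 0.43, beside 0.06 for all genes, and it was 0.50 in pair 1, 0.52 in pair 2 and 0.26 in pair 3. By limma with the block 7 of the 81 rose and 0 fell, where 0.563% of all genes rose. Of the 7, 4 were still called after quantile normalization, 2 (Prc1 and Smc4) after median centring and 0 without the trend, and Kif15, Ncapg and Bub1b were lost in all 3 of these fits. The 7 did not include the classic G2 regulators Ccnb1 (log2 0.58, limma adjusted p = 0.0641 with the block) or Plk1 (0.42, adjusted p = 0.0907). The list median stayed between 0.37 and 0.52 under every scaling, pseudocount and left-out pair that was run.

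The called members act late in the cell cycle. Prc1, which bundles microtubules of the spindle midzone, was at 57.2, 82.7 and 61.9 CPM in WT and 87.8, 135 and 82.6 CPM in KO. Its groups overlapped barely, with the highest WT library just above the lowest KO library. It differed by 0.57 (SE 0.07, limma adjusted p = 0.0435 with the block). Kif15, a spindle kinesin, was at 14, 20.9 and 13.1 CPM in WT and 21.8, 32.0 and 18.8 CPM in KO, and replicate 2 was the highest in both genotypes. Ncapg, a condensin subunit, went from 23.4, 37.7 and 22.8 CPM to 37.9, 53.4 and 31.2 CPM. Smc4, the ATPase shared by both condensins, went from 88.9, 124 and 93.2 CPM to 123, 185 and 129 CPM. In each of these genes every pair rose while replicate 2 stood above the others. Tpx2, a spindle assembly factor, Bub1b, the checkpoint kinase BubR1, and Top2a, the topoisomerase that untangles chromosomes, rose by 0.47, 0.44 and 0.44.

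Genes of S phase entry and replication showed a smaller shift. Of 75 measured, 74 lay above WT, with a median of 0.26 and with pair medians of 0.31, 0.36 and 0.10. None passed, either way, by limma with the block, while over all genes 0.920% passed and 66.6% lay above WT. Msh6, a mismatch repair gene, was at 37.2, 41.7 and 37.9 CPM in WT and 46.0, 53.5 and 47.7 CPM in KO, and Dnmt1, the maintenance DNA methyltransferase, at 87.9, 103 and 90.7 CPM against 106, 132 and 108 CPM. Both genes separated the genotypes and missed the threshold (limma adjusted p = 0.0652 and 0.0669 with the block). Without pair 3, limma called 71 of the 81 G2 and mitosis genes and 41 of the 75 S phase genes higher and 0 lower, where 1648 of all 10648 genes were higher and 790 lower. Of 7 D-type cyclins and G1 kinases 0 were called, and Ccnd1 differed by 0.32, 0.54 and -0.34 in the 3 pairs.

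A few chromatin genes rose, and splicing factor genes lay slightly above WT. Hmgb1 and Hmgn2, abundant chromatin proteins, rose by 0.36 and 0.56, and Rad21, the cohesin subunit cut at anaphase, by 0.42. Whsc1, a histone H3 lysine methyltransferase, rose by 0.54. Of 52 genes for SR and hnRNP splicing factors 46 lay above WT with a median of 0.17, which stayed at 0.11 or above under every scaling run, and 0 were called. Hnrnpr went from 85.7, 94.2 and 85.3 CPM to 104, 122 and 102 CPM (limma adjusted p = 0.0669 with the block). Of the core Polycomb genes 23 of 30 lay above WT with 0 called. Over all genes 66.6% lay above WT and 0.920% were called. Ezh2, the methyltransferase of Polycomb repressive complex 2, went from 27.2, 45.8 and 28.1 CPM to 39.7, 57.1 and 35.3 CPM (limma adjusted p = 0.0693 with the block).

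Promoters are shown for Ncapg and Top2a because both rose and both hold the 2 motifs searched for in mitotic genes: the CHR element, TTTGAA, and the CCAAT box, each on either strand and with no overlap between them. They are the 250 bases before the annotated start, on the gene's strand 5′ to 3′, from RefSeq on GRCm38.p6. The coordinates are chr5:45669675-45669924 (plus strand) for Ncapg and chr11:99024190-99024439 (minus strand) for Top2a. Capitals mark motif matches.
Ncapg: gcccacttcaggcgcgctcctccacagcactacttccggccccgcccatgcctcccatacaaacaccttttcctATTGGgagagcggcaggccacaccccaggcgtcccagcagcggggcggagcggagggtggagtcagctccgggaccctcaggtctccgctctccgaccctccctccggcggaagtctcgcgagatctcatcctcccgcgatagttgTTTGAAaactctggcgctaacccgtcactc
Top2a: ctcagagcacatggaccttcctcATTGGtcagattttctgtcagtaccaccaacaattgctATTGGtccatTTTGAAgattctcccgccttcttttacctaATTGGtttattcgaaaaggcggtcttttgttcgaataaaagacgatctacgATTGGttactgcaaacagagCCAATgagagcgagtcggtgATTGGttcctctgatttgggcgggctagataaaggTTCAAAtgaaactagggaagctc
The Ncapg stretch holds 1 CHR match, 30 to 25 bases before the start. Of the 68 G2 and mitosis genes with a promoter in the reference 25 (36.8%) held a CHR match, against 10% of the 8329 measured genes with one and 16.3% of all 27025. A CCAAT box was found in 47 of the 68 (69.1%), against 36.4% and 34.5%. A match is a string of letters and not a measured binding site.

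Contractile genes of smooth muscle and myofibroblasts lay below WT. Of 34 measured, 30 were below, with a median of -0.26 that was -0.20, -0.25 and -0.22 in the 3 pairs. By limma with the block 6 fell and 1 rose, beside backgrounds of 0.357% and 0.563%, and 1 of these 7, Mrvi1, was still called without the trend. The list's median stayed between -0.25 and -0.32 under every scaling, pseudocount and left-out pair run. The summed fibroblast markers, given above, were lower in KO in the same pairs, and their part in this was not tested.

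Mylk, the kinase that switches on smooth muscle myosin, was at 36.6, 29.7 and 35.2 CPM in WT and 18.8, 18.3 and 23.7 CPM in KO. All KO libraries lay below all WT libraries, and the difference was -0.71 (SE 0.09, limma adjusted p = 0.0457 with the block). Myl9, a regulatory light chain of that myosin, fell from 772, 858 and 630 CPM to 527, 553 and 463 CPM. Mrvi1, a cGMP kinase substrate that dampens calcium release, fell from 18.5, 23.2 and 18.5 CPM to 9.04, 11.3 and 9.75 CPM. The groups were apart in both genes. Kcnmb1, a subunit of a calcium-activated potassium channel, fell by 0.87 from levels that were lower in replicate 3 (39.6, 52.8 and 6.71 CPM in WT and 17.7, 27.6 and 4.17 CPM in KO). Cnn1, calponin, fell by 0.55 and Actg2, the enteric smooth muscle actin, by 0.58.

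Acta2 and Tagln, members of the same list, did not pass. Acta2, alpha smooth muscle actin, was at 7404, 8586 and 5890 CPM in WT and 5813, 6672 and 4773 CPM in KO (log2 -0.34, limma adjusted p = 0.122 with the block). Tagln, transgelin, differed by -0.29 without passing (limma adjusted p = 0.105 with the block). Srf, the transcription factor of the contractile genes, and its cofactor Mkl1 differed by -0.02 and -0.05. Synm, the intermediate filament gene synemin, went the other way and rose from 3.70, 5.61 and 3.76 CPM to 8.60, 11.2 and 6.60 CPM.

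Acta1, the skeletal muscle actin that fibroblasts in culture also express, fell in every pair. It was at 160, 407 and 69.7 CPM in WT and 81.9, 171 and 25.9 CPM in KO. The groups overlapped, since replicate 2 was high and replicate 3 low in both genotypes, and 75.4% of its spread lay between pairs. The difference was -1.20 (SE 0.09, limma adjusted p = 0.0246 with the block), and it was also called without pair 1 (adjusted p = 0.0396). The other measured muscle markers were Des, desmin, at -0.90 and Tnnc1, troponin C, at -0.32, neither called. The actin genes are near copies of each other, and how reads shared between them were counted is not given in the sources used here.

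The promoter of Myl9 is shown as the called contractile gene with a CArG box, the motif bound by SRF, in the 250 bases before its start. It lies at chr2:156775214-156775463 (plus strand, GRCm38.p6, RefSeq), and capitals mark the motif.
Myl9: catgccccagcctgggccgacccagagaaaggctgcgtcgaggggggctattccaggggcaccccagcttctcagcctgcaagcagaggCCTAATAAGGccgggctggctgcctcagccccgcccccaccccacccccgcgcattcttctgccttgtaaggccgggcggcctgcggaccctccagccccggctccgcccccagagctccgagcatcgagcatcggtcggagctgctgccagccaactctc
The match lies 161 to 152 bases before the start. Among contractile genes with a promoter in the reference 5 of 30 held a CArG box on either strand (16.7%), against 1.15% of measured genes and 1.4% of all.

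Several distal Hox and limb genes rose. Hoxd13, a gene of the digits and genital region, was at 10.4, 10.2 and 16.5 CPM in WT and 38.2, 32.5 and 38.8 CPM in KO. Hoxa13, its partner in the Hoxa cluster, was at 2.72, 2.61 and 2.89 CPM against 8.79, 6.82 and 8.79 CPM. Tbx4, a transcription factor of the hindlimb, was at 4.54, 2.76 and 3.82 CPM against 19.4, 13.2 and 10.3 CPM. All 3 genes had every KO library above every WT library, with differences of 1.52, 1.28 and 1.68 (limma adjusted p = 0.0246, 0.0246 and 0.0302 with the block). Hoxa11, a gene of the forearm and lower leg, rose by 0.76 from 9.21, 8.17 and 5.79 CPM to 16.0, 13.9 and 11.2 CPM. Its antisense transcript Hoxa11as rose by 1.12. The kit was stranded, but whether the counting used strand is not given in the sources used here, so reads of Hoxa11 and Hoxa11as cannot be told apart. Lmx1b, which sets the dorsal side of the limb, rose by 0.96 from 2.86, 2.76 and 2.95 CPM to 6.49, 5.56 and 7.55 CPM.

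The rise was not shared by the Hox clusters as a whole. Of 26 measured Hox genes 3 rose and 0 fell, beside 0.563% and 0.357% of all genes. The median of the 26 was -0.19, and 19 had a mean below WT. All 8 genes of cluster b had a mean below WT, with a median of -0.21, and all 6 of cluster c, with a median of -0.56. Pair 3 differed from the others: the medians of cluster b were -0.31, -0.43 and 0.06 in pairs 1, 2 and 3 and those of cluster c -0.62, -0.71 and -0.19. In pairs 1 and 2 none of these genes lay above WT, whereas in pair 3 it was 6 of 8 in cluster b and 2 of 6 in cluster c. None of the 14 passed. Hoxc6 was at 41.5, 37.8 and 47.3 CPM in WT and 23.7, 22.1 and 42.7 CPM in KO (limma adjusted p = 0.110 with the block). Hoxb9 was at 78.8, 70.5 and 81.6 CPM against 64.4, 56.1 and 85.2 CPM. In both genes pair 3 differed less than the other pairs, or not downward. Hoxd11 lay above WT in all libraries, at 3.42, 2.51 and 4.05 CPM against 8.91, 6.82 and 6.48 CPM, and missed the threshold (limma adjusted p = 0.0649 with the block). Pitx1, a hindlimb factor upstream of Tbx4, was at 4.54, 4.76 and 7.06 CPM in WT and 14.3, 11.6 and 5.75 CPM in KO, higher in pairs 1 and 2 and not in pair 3.

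Over 27 measured limb genes 5 rose and 1 fell, beside 0.563% and 0.357% of all genes, the latter being Wnt5a, a ligand of limb outgrowth (235, 294 and 219 CPM against 170, 227 and 165 CPM, log2 -0.41). The Wnt5a call was lost without the trend. Of 112 listed developmental regulators known as Polycomb targets 49 were measured. Targets silent in WT are not covered, as the table holds only genes above 2 CPM in each WT library. Among the 49, 3 rose, which were Tbx4, Bmp4 and Lmx1b, and Wnt5a fell, beside the same shares of all genes. The called Hox genes are not on this list. The median of that list was 0.11, beside 0.06 for all genes, and 29 of the 49 lay above WT, where 66.6% of all genes did. Bmp4, a morphogen, varied widely between pairs: it was at 9.14, 4.11 and 36.2 CPM in WT and 21.2, 7.78 and 78.1 CPM in KO. The groups overlapped, yet each pair rose by a similar factor (log2 1.00, SE 0.10, limma adjusted p = 0.0302 with the block).

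**Figure D3:**
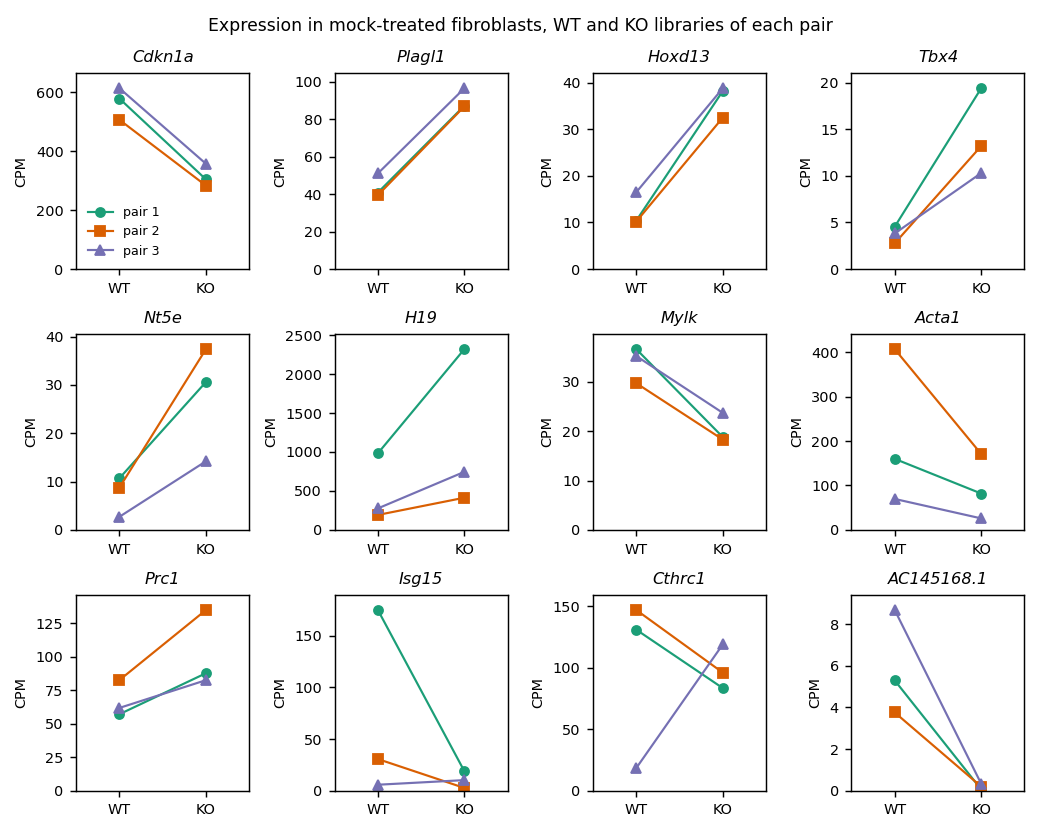
CPM of 12 genes in the WT and KO library of each pair, joined by a line, with pair 1 as circles, pair 2 as squares and pair 3 as triangles. Each vertical axis starts at 0. Cdkn1a and Mylk fall and Plagl1, Hoxd13 and Tbx4 rise with no overlap of the groups, H19 and Acta1 change in each pair from very different levels, and Isg15 and Cthrc1 change in opposite directions between pair 3 and the other pairs.

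The imprinted growth genes Plagl1 and H19 rose. Plagl1, an imprinted zinc finger factor of embryonic growth, was at 40.8, 39.4 and 51.0 CPM in WT and 87.1, 86.7 and 96.4 CPM in KO. The groups were far apart, the difference was 1.03 (SE 0.06, limma adjusted p = 0.0223 with the block), and 94.5% of the spread lay between genotypes. H19, an imprinted noncoding RNA expressed from the maternal allele, was at 983, 192 and 276 CPM in WT and 2320, 413 and 745 CPM in KO. Replicate 1 was highest in both genotypes and the groups overlapped, but the pairs rose by 1.24, 1.10 and 1.43 on the log2 scale. Igf2, its paternally expressed neighbour, was at 759, 268 and 66.0 CPM against 1284, 381 and 165 CPM and did not pass (limma adjusted p = 0.0669 with the block). Of 20 measured imprinted genes 2 rose and 0 fell, beside 0.563% and 0.357% of all genes. On each side of WT lay 10 of them, and the median was -0.01. Meg3, Grb10 and Peg3 were not called.

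Several genes of the cell surface rose. Nt5e, the CD73 enzyme that turns AMP into adenosine, was at 10.7, 8.77 and 2.72 CPM in WT and 30.6, 37.4 and 14.2 CPM in KO. The groups did not overlap, and Nt5e showed the largest called rise, 1.81 (SE 0.14, limma adjusted p = 0.0246 with the block). It was also called without pair 1 (adjusted p = 0.0396). Gjb2, the gap junction protein connexin 26, went from 4.68, 13.7 and 5.96 CPM to 24.0, 46.4 and 16.4 CPM. Il1rl1, the receptor of interleukin 33, went from 89.7, 68.2 and 104 CPM to 294, 301 and 200 CPM. In both genes every KO library exceeded every WT library. Without the trend the Gjb2 and Il1rl1 calls were lost, and that of Il1rl1 also at a mean of at least 5 CPM. Pkp1, a plakophilin of desmosomes, rose by 1.58 with replicate 2 far above the others in both genotypes (2.65, 25.4 and 4.40 CPM in WT, 12.0, 74.3 and 13.2 CPM in KO).

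Several ligands and receptors of cell guidance were among them. Efna1, an ephrin ligand, rose from 3.70, 3.26 and 2.49 CPM to 9.04, 8.44 and 6.82 CPM. Robo2, a Slit receptor, rose by 0.99, the semaphorin gene Sema3f by 0.74 and the ligand gene Slit2 by 0.48. The Slit2 call was lost after median centring, at a mean of at least 5 CPM and without the trend. Of 45 measured ephrin, semaphorin and Slit genes 4 rose and 0 fell, beside 0.563% and 0.357% of all genes, with a median of 0.07 beside 0.06 for all genes. Prom1, the membrane protein prominin 1, rose by 1.40 from 2.86, 2.81 and 2.26 CPM to 11.3, 9.19 and 6.09 CPM. Itgb8, an integrin that activates latent TGF-beta, rose by 1.06, and Sdc4, a syndecan of focal adhesions, by 0.84. The Sdc4 call was lost without the trend.

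Transcription factors that rose included Ahrr, the repressor of the dioxin receptor, from 2.79, 3.96 and 4.11 CPM to 7.13, 13.7 and 8.79 CPM. Mecom, a zinc finger factor, rose from 33.2, 38.8 and 32.6 CPM to 57.4, 62.4 and 56.9 CPM. Nfib, a nuclear factor I gene, rose from 24.9, 24.8 and 35.8 CPM to 43.7, 46.2 and 58.4 CPM. Groups were apart for all of these. Glis3 and Trps1 rose by 0.85 and 0.79. Egr1, an immediate-early factor, rose by 0.46, and 1 of 27 immediate-early genes was called, beside 0.920% of all genes. The Egr1 call was lost after quantile normalization, after median centring, at a mean of at least 5 CPM and without the trend.

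Matrix genes moved in both directions. Col5a3, a minor fibrillar collagen chain, rose from 269, 387 and 150 CPM to 654, 628 and 260 CPM. It was the only call among 24 collagen genes, where 0.920% of all genes were called. Col4a2, a basement membrane chain, was at 2054, 2359 and 2253 CPM in WT and 1659, 1791 and 1691 CPM in KO, below in every library without passing (limma adjusted p = 0.0669 with the block). Lama5 and Nid2, a laminin chain and a nidogen that link basement membranes, rose by 0.77 and 0.74. Of 60 measured matrix glycoproteins and proteoglycans 3 rose (these and Sdc4) and 0 fell, and 35 lay below WT. Among 39 proteases and inhibitors Mmp2, gelatinase A, rose by 0.56 and Serpine2, protease nexin 1, by 0.59, while Mmp9 fell. Of all genes 0.563% rose and 0.357% fell. Without the trend the Col5a3, Lama5, Nid2, Mmp2 and Serpine2 calls were lost. The Lama5 and Mmp2 calls were also lost at a mean of at least 5 CPM, and that of Mmp2 after median centring.

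Mmp9, gelatinase B, was at 77.3, 81.4 and 7.70 CPM in WT and 37.8, 27.4 and 1.97 CPM in KO. Replicate 3 was low in both genotypes, and 83.8% of the spread lay between pairs. Each pair fell, by 1.37 on average (SE 0.12, limma adjusted p = 0.0246 with the block and 0.0492 without pair 1). KO 3 was under 2 CPM, a limit set in WT alone, so the contrast of Mmp9 with WT is a description. Mmp9 was not among the calls with every library above 2 CPM. C1qtnf3, a secreted C1q and TNF-related protein, fell from 82.6, 124 and 82.7 CPM to 32.5, 45.7 and 47.4 CPM. Olr1, the receptor of oxidised LDL, fell from 14, 21.1 and 18.1 CPM to 5.99, 8.49 and 8.51 CPM. Both genes had all KO libraries below all WT libraries. Nell2, a secreted EGF-domain protein, fell by 1.30 and Lrp2, the endocytic receptor megalin, by 0.98. Nell2 was at 0.958 CPM in KO 3 and has the same limit as Mmp9.

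Megf10, an engulfment receptor, fell from 30.4, 52.6 and 35.8 CPM to 16.4, 27.2 and 20.6 CPM. Dusp4, a MAP kinase phosphatase, fell from 89.3, 160 and 65.3 CPM to 50.3, 90.6 and 43.2 CPM. Adra2a, an adrenergic receptor, fell by 0.82, and Tgm2, tissue transglutaminase, by 0.75. Eng, the TGF-beta coreceptor endoglin, fell by 0.57 and was the one call among 5 measured endothelial markers, where 0.357% of all genes fell. Ankrd1, a target of YAP, fell by 0.50, whereas Nt5e on the same list of 23 YAP and TEAD targets rose, and the median of that list was -0.02. Tfpi, the inhibitor of tissue factor, and Pappa, a protease that frees IGF, fell by 0.59 and 0.54. Gas6, a ligand of the AXL receptor, fell by 0.51, and S100a4, the calcium-binding protein often used to mark fibroblasts, fell by 0.50. The calls of Eng, Ankrd1, Gas6 and S100a4 were lost without the trend.

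AC145168.1 and RP23-73N16.5, a pair of clone-named genes, are described here because their KO values were near 0. They were picked for those values, and only the WT columns have a lower limit in this table, so the contrast with WT is a description. AC145168.1 was at 5.30, 3.76 and 8.68 CPM in WT and 0.0637, 0.202 and 0.338 CPM in KO. RP23-73N16.5 was at 2.79, 2.41 and 3.01 CPM in WT and 0.00, 0.0505 and 0.0564 CPM in KO. Neither name was found in the reference annotation, and where they lie is not given here. RP23-65G6.4, another clone-named transcript, rose by 1.08.

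Interferon-stimulated genes differed between the pairs in sign. Of 43 measured, 42 had a mean below WT with a median of -0.75, and 0 were called, beside 0.920% of all genes. In pair 1 the median was -1.32 with 0 genes above WT, in pair 2 it was -1.17 with 2 above, and in pair 3 it was 0.22 with 36 above. Isg15, a ubiquitin-like antiviral protein, was at 175, 30.7 and 5.84 CPM in WT and 19, 2.73 and 10.3 CPM in KO. Ifit1, which binds foreign RNA, was at 71.7, 13.8 and 4.17 CPM against 9.61, 2.22 and 6.82 CPM. Bst2, tetherin, was at 231, 48.9 and 23.5 CPM against 43.5, 12.5 and 36.0 CPM. In these genes WT 1 was the highest library, and WT 3 lay below KO 3. The summed level of the list was 3471, 1546 and 1193 CPM in WT and 1354, 799 and 1378 CPM in KO, so the libraries of 1 genotype differed as much as the genotypes did.

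Without pair 3 limma called 41 of the 43 interferon-stimulated genes lower and 0 higher, in a fit that called 790 of all 10648 genes lower and 1648 higher. Stat2 and Irf9, factors of the interferon response, differed by -0.96 and -0.76 in the mean with limma adjusted p of 0.225 and 0.212 with the block. The 6 measured MHC class I genes were all below WT in the mean, with a median of -0.20 and pair medians of -0.45, -0.23 and 0.05. B2m, their light chain, was at 618, 435 and 427 CPM against 429, 380 and 420 CPM. Ifi27l2b, an interferon-induced gene with near copies beside it, fell in all 3 pairs, from 5.37, 8.57 and 2.31 CPM to 1.72, 3.33 and 0.733 CPM, and reads may be split between the copies. KO 1 and KO 3 were under 2 CPM, a limit set in WT alone, so its contrast with WT is a description.

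Promoters of Isg15 and Ifit1 are shown because their pairs differed most among interferon genes and both hold the interferon-stimulated response element, searched as GAAANNGAAA on both strands. They lie at chr4:156200819-156201068 (minus strand) and chr19:34640639-34640888 (plus strand) on GRCm38.p6, from RefSeq, with matches in capitals.
Isg15: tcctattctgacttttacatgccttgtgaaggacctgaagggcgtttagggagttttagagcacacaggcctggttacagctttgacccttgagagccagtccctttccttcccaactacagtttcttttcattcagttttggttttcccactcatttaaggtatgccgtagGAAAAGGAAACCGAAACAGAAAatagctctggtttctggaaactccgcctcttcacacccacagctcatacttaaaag
Ifit1: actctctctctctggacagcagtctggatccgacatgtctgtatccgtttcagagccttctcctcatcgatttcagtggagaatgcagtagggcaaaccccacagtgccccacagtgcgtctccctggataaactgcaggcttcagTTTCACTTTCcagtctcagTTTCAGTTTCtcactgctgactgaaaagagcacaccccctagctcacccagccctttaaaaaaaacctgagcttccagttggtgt
Of interferon-stimulated genes with a promoter in the reference 12 of 36 (33.3%) held the element in the 250 bases before the start, against 2.41% of measured genes and 3.04% of all. The 3 matches in Isg15 overlap in one run, and those in Ifit1 are 2 separate stretches read on the opposite strand.

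Other genes also changed sign in pair 3. Coch, a secreted protein of the inner ear matrix, differed by 1.62, 1.89 and -2.45 in the 3 pairs, the widest range among genes with a mean of at least 10 CPM. Cthrc1, a secreted protein of activated fibroblasts, was at 131, 147 and 18.5 CPM in WT and 83.5, 96.1 and 119 CPM in KO. WT 3 stood alone among the 6 libraries for Cthrc1. Rspo2, a Wnt agonist of limb buds, was at 6.84, 2.76 and 67.6 CPM against 17.5, 13.2 and 27.7 CPM. Col2a1, the cartilage collagen, was at 9.00, 26.7 and 8.33 CPM in WT and 40.0, 144 and 8.46 CPM in KO, higher in pairs 1 and 2 and level in pair 3. None of these passed by limma with the block, with adjusted p from 0.151 for Col2a1 to 0.824 for Coch.

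Housekeeping groups differed little. Of 74 genes for cytosolic ribosomal proteins 71 lay above WT with a median of 0.11, and of 76 for mitochondrial ribosomal proteins 68 did, with a median of 0.09. After centring on the library medians these medians were 0.05 and 0.03. Rpl39l, a near copy of Rpl39, was 1 of the 3 cytosolic members with a mean below WT, at 18.5, 16.7 and 17.1 CPM in WT and 9.11, 8.23 and 13.0 CPM in KO, below in every library (limma adjusted p = 0.0703 with the block). Genes of oxidative phosphorylation and of the proteasome had medians of 0.06 and 0.08, which is about the shift of all genes. Lysosome genes lay slightly below WT, with a median of -0.06 and 33 of 52 below, among them Hexa, a subunit of hexosaminidase (306, 232 and 283 against 227, 185 and 243 CPM, limma adjusted p = 0.0669 with the block). None of these lists held a called gene, nor did the 168 solute carriers or the 284 zinc finger genes named Zfp. Over all genes 66.6% lay above WT and 0.920% were called, a share at which lists of this size hold few calls.

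Cholesterol synthesis genes showed how far pairs could differ without a genotype call. Their median difference was -0.23 in pair 1, 0.04 in pair 2 and 0.40 in pair 3, with 0 of 22 called, beside 0.920% of all genes. Sqle, squalene epoxidase, was at 124, 117 and 170 CPM in WT and 123, 135 and 216 CPM in KO.

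**Figure D4:**
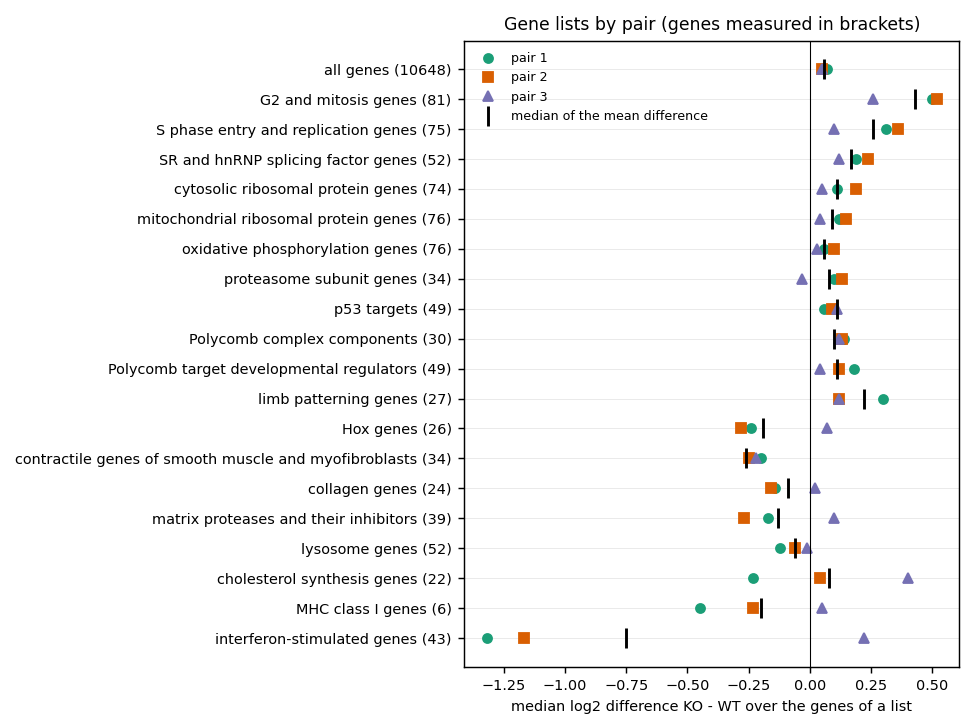
For each gene list, the horizontal axis gives the median log2 difference, KO minus WT, of its genes in pair 1 (circle), pair 2 (square) and pair 3 (triangle), and the black bar gives the median of the mean difference. The numbers of measured genes stand in brackets. Contractile genes lie left of 0 and G2 and mitosis genes right of 0 in all 3 pairs, while interferon-stimulated genes lie far left in pairs 1 and 2 and right of 0 in pair 3.

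Called genes were found on every autosome. Chromosome 2 held the most, 15 of 869 genes (1.73%), and chromosome 10 the fewest among the autosomes, 1 of 516 (0.194%), which was Plagl1. Over all genes 0.920% were called. The table hardly covers the sex chromosomes: it places 22 genes on X and 0 on Y, where each autosome has 263 to 877. None of the 22 was called, which is too few genes to describe chromosome X. A set of 29 of the 98 calls, 21 higher and 8 lower, held in every fit except those without the block or without pair 1 or 2. It included Cdkn1a, Plagl1, H19, Hoxa11, Hoxa13, Hoxd13, Tbx4, Nt5e, Pkp1, Bmp4, Mecom and Nfib, and, among those that fell, Acta1, Mrvi1, Megf10, Olr1, Lrp2, Gpr116 and Adra2a.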

How the data were processed

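RNA was sequenced from primary mouse embryonic fibroblasts with a stranded mRNA kit, per the labels' protocols. The values used were CPM, deposited by the authors in a table of the 6 mock libraries. Per the submitters' processing notes, the assembly was NCBIM37 and the tools were HTSeq, edgeR and TopHat2 2.0.6, with no role stated for any of them. Every value was whole within 0.001 of a read when multiplied by its library total, with totals inferred from the values, which were used to describe depth alone. The doxorubicin table was not used.

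Values were taken as log2(CPM + 1) and fitted with limma 3.58.1 in R 4.3.3 (lmFit, then eBayes with a trend of variance on level), with genotype and the replicate number as a block and Benjamini-Hochberg adjustment at 0.05 over all 10648 genes. The blocked fit has 2 residual degrees of freedom per gene and a median of 5.58 after moderation. The fit was also run on simulated data that had the pair block built in, so that run cannot test the pairing. The block was used because KO and WT libraries of one number were compared as pairs. Their deviations from the group means correlated at 0.719, 0.855 and 0.710 across genes, whereas libraries of different numbers gave -0.0668 to -0.728, values that are pushed below 0 because the deviations of a group sum to 0. The pairing thus comes from the shared numbers and the data, not from a label that explains them.

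Gene names matched the reference as symbols for 9173 genes, synonyms for 1132 and GENCODE names for 28, and 315 were unmatched. Promoters came from RefSeq on GRCm38.p6, which differs from the submitters' assembly. The first listed start of each gene was used, and chromosome 18 was left out. Named genes are Cdkn1a, Trp53 and Mdm2, the 15 largest called differences each way, up to 4 called members of each list or, where under 2 were called, the 3 with the smallest p, and the 6 with the largest range between pairs at a mean of at least 10 CPM. Other genes are named from their lists or their calls after their values were seen, and the motifs and the promoters shown were also chosen then. The comparison, its gene lists and its rules were chosen with earlier results of these data known.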

Additional observations from a re-analysis of the deposited data

How the results depend on the processing

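The count of 98 called genes fell to 0 with no replicate block and to 38 with limma without the trend, and leaving out 1 pair gave 0 to 2438 calls. With 4 libraries left, those last fits rest on 1 residual degree of freedom. All 98 genes kept their direction in every fit that tested them. For every fit except that after quantile normalization this was fixed in advance. Dropping the block or the trend, or filtering genes by level, leaves the mean difference unchanged. The 3 pairs of each called gene had the same sign, which no pseudocount and no left-out pair can reverse. Median centring shifts all genes by the same amount, which is smaller than any called difference. The count was 76 with a mean of at least 5 CPM, 93 with every library above 2 CPM, 98 and 112 with pseudocounts of 0.5 and 0.1, 104 after quantile normalization and 108 after median centring. Cdkn1a was at -0.85 on the log2 scale in the fit with no replicate block (adjusted p = 0.395) and at -0.81 to -0.88 when a pair was left out, with limma adjusted p of 0.0834 without pair 1, 0.175 without pair 2 and 0.000181 without pair 3. Cthrc1 reversed without pair 3, from 0.46 to -0.63 (limma adjusted p = 0.000508), and reached 1.01 without pair 1. Among 162 named genes 58 were called in the main fit. All 58 lost the call with no replicate block and without pair 2, and 54 of them lost it without pair 1. Of 47 list medians, 17 moved by more than the spread between pairs after median centring and 14 after quantile normalization. The planned count tests were left out and so not run: deposited values are CPM, the read totals are inferred, and the WT columns hold no gene of a few reads that would show the step of 1 read directly. Depth limits the low end: by those totals 3 reads made 0.15 to 0.209 CPM.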
